A study of Mus musculus with 16 samples.

Results

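The genes described here are 38 genes of the lysosome and of autophagy, measured by RNA sequencing in the mouse retinal pigment epithelium (RPE). They were listed by name, matched to the count table through Ensembl identifiers, and kept where the mean over 16 libraries was at least 1 CPM (counts scaled to a library of 1e+06). All 38 met that limit, among 15380 genes that did so of 51912 in the table. They fall into 3 classes: 18 proteins of the lysosomal lumen (15 hydrolases and 3 helpers), 8 membrane and pump proteins, and 12 autophagy genes, of which 2 encode transcription factors.

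The study exposed wild-type mice and mice lacking Sucnr1, which encodes a receptor for succinate, to hydroquinone, an oxidant, or left them untreated. All were 40-week-old C57BL/6 males, and each library was made from the RPE of 1 eye. Untreated wild type had 4 libraries from 2 mice, wild type with hydroquinone 4 from 4 mice, untreated knockout 4 from 3 mice and knockout with hydroquinone 4 from 4 mice, as the titles name them. The labels do not describe the knockout allele, the breeding of the controls or how hydroquinone was given.

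RPE cells engulf the shed tips of photoreceptor outer segments every day and break them down in lysosomes. Proton pumps of the V-ATPase acidify the lysosome, membrane proteins such as LAMP1 and LAMP2 line it, and cathepsins, glycosidases and lipases in its lumen cut proteins, sugars and lipids. Autophagy proteins wrap the cell's own material, and in RPE a branch of the same machinery also acts on engulfed outer segments. The transcription factors TFEB and TFE3 act on many of these genes through a short promoter motif, the CLEAR element, built around the letters TCACGTGA.

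That core motif is shown first because it is what several members share in sequence. A RefSeq promoter window (GRCm38.p6, 250 bases before to 50 after a start site) was matched for 30 of the 38 members; Asah1, Ctsh, Ctsb, Becn1, Map1lc3a, Atg12, Npc1 and Atp6v1h had no entry. The letters TCACGTGA, which read the same on both strands and contain the E-box CACGTG, were found in 6 of 30 members and in 1.12% of all 27025 genes with a window. Counted over windows, they were in 0.974% of 32851. The shorter CACGTG was found in 11 of 30 members and in 8.09% of all genes. These are matches of letters and not measured binding sites. In the stretches below, written 5′ to 3′ along the gene's strand, the capitals mark TCACGTGA.
Ctsa, chr2:164833740-164833804, plus strand: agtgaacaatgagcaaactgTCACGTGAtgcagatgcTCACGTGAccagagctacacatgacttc
Ctsd, chr7:142387899-142387946, minus strand: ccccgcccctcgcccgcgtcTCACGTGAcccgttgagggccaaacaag
Gla, chrX:134601173-134601253, minus strand: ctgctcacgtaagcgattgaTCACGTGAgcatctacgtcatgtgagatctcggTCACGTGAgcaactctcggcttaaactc
Mcoln1, chr8:3500453-3500500, plus strand: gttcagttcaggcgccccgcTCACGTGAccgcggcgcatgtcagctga
Atp6v0d1, chr8:105566041-105566088, minus strand: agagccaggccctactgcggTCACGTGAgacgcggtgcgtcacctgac
Atp6v1a, chr16:44139364-44139411, minus strand: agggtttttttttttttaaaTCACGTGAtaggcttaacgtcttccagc
Ctsa and Gla carried the motif at 2 places and the other 4 genes at 1. Of the 6, 3 encode lumenal hydrolases (Ctsa, Ctsd and Gla) and 3 encode membrane or pump proteins, and no matched autophagy gene held it.

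Library totals ran from 21113549 to 35332444 counts, and each of the 38 genes was counted in every library. Of the libraries, untreated wild-type replicate 3 (18282) and untreated knockout replicate 1 (17904) had the fewest genes with a count. Sucnr1 could not check the genotype labels, since the 8 wild-type libraries held 29 of its counts in all, with 4 libraries at 0, and the 8 knockout libraries held 4, with 6 at 0. Of the 12 RPE markers, Best1 was low, at 0.99 to 3.3 CPM, and the others were at 146.3 CPM or more in every library. The mean log2(CPM + 1) over all 12 genes (the RPE score) was between 9.41 and 10.22. Markers of other cells were present too: the score over 12 rod photoreceptor genes ran from 2.88 to 9.89, and the score over 11 macrophage and microglia genes from 4.51 to 5.99, with no gene of either list at 0 in any library. Corneal epithelium (6 genes) ran from 8.14 to 10.91 and oligodendrocytes (6 genes) from 2.91 to 9.56. In such bulk samples, fewer cells of a type and less RNA per cell cannot be told apart.

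Lumenal genes made up most of the members' summed CPM. The 38 genes together took between 1.07% and 1.68% of a library's counts, and lumenal genes held 73.4% of the members' summed CPM, membrane and pump genes 18.3% and autophagy genes 8.40%. Per kilobase of exon, Psap (chromosome 10, 60277627 to 60302597, GRCm38), which encodes the precursor of the saposins that help hydrolases reach lipids, was the highest of all at 1555 ± 270.2 CPM per kilobase (SD over 16 libraries). The aspartic protease gene Ctsd followed at 509.8 ± 74.8 CPM per kilobase and the cysteine protease gene Ctsb at 255.4 ± 41.6. Each step from Psap to Ctsd to Ctsb was wider than the sum of both genes' SDs. The lowest lumenal gene was Gla, the α-galactosidase (chromosome X, 134588149 to 134601125), at 10.6 ± 1.41 CPM per kilobase. It was at 33.5, 36.1, 36.9 and 25.8 CPM in untreated wild type, at 30.4, 28.0, 34.0 and 40.0 CPM in treated wild type, at 31.3, 37.6, 35.6 and 29.2 CPM in untreated knockout and at 39.3, 39.2, 41.2 and 36.5 CPM in treated knockout. All 4 groups overlapped for Gla. Of the Ctsd exon windows of 50 bases, 32.4% also occur in the overlapping gene model Gm49369, so its counts may have been split.

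Among the membrane and pump genes, Cd63, a tetraspanin of late endosomes (chromosome 10, 128900989 to 128912822), led at 216.1 ± 30.6 CPM per kilobase, ahead of Lamp1 at 181.9 ± 21.7. Cd63 was at 860.5, 748.7, 932.8 and 648.4 CPM in untreated wild type, at 721.9, 758.4, 743.7 and 903.3 CPM in treated wild type, at 837.9, 750.3, 898.2 and 575.4 CPM in untreated knockout and at 645.1, 870.1, 896.1 and 941.1 CPM in treated knockout. Each group held both low and high libraries, and all overlapped. The lowest was Mcoln1, a calcium channel of the lysosome (chromosome 8, 3500457 to 3515232), at 4.79 ± 0.54 CPM per kilobase. Of the V-ATPase subunits, Atp6v0d1 (68.4 ± 4.19 CPM per kilobase) and Atp6v1a (65.9 ± 9.83) differed by less than their SDs, and Atp6v1h was lower at 11.8 ± 0.91 CPM per kilobase. Of the Cd63 windows, 11.0% also occur in the pseudogene Cd63-ps.

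Among the autophagy genes, a pair of the 3 that encode ubiquitin-like proteins of the autophagosome came first: Gabarapl1 (chromosome 6, 129533160 to 129542346) stood at 120.5 ± 12.8 CPM per kilobase and Map1lc3a at 112.7 ± 15.9. The gap between them was within their SDs. The other one, Map1lc3b, was at 20.4 ± 2.41 CPM per kilobase, below the cargo receptor gene Optn at 34.9 ± 5.02 and Wipi1, which acts in forming the autophagosome, at 24.7 ± 3.22. Lower still were Becn1 at 15.7 ± 1.11, Atg5 at 14.6 ± 1.68, Ulk1 at 8.88 ± 1.03 and Atg7, the enzyme that activates the ubiquitin-like proteins (chromosome 6, 114643097 to 114860614), last of all 38 at 3.60 ± 0.36 CPM per kilobase. The transcription factor genes Tfeb (4.44 ± 0.72) and Tfe3 (4.10 ± 0.50) stood next to it. Over all 38 ranked levels, 4 steps between neighbours exceeded the sum of their SDs: Psap to Ctsd, Ctsd to Ctsb, Npc2 to Atp6v0d1 and Ulk1 to Npc1. Exons of Becn1 (43.9%, with Cntd1) and Gabarapl1 (28.3%, with 1700101I11Rik) overlap other genes, and the strand setting of the counting is not given in the sources used here.

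**Figure D1:**
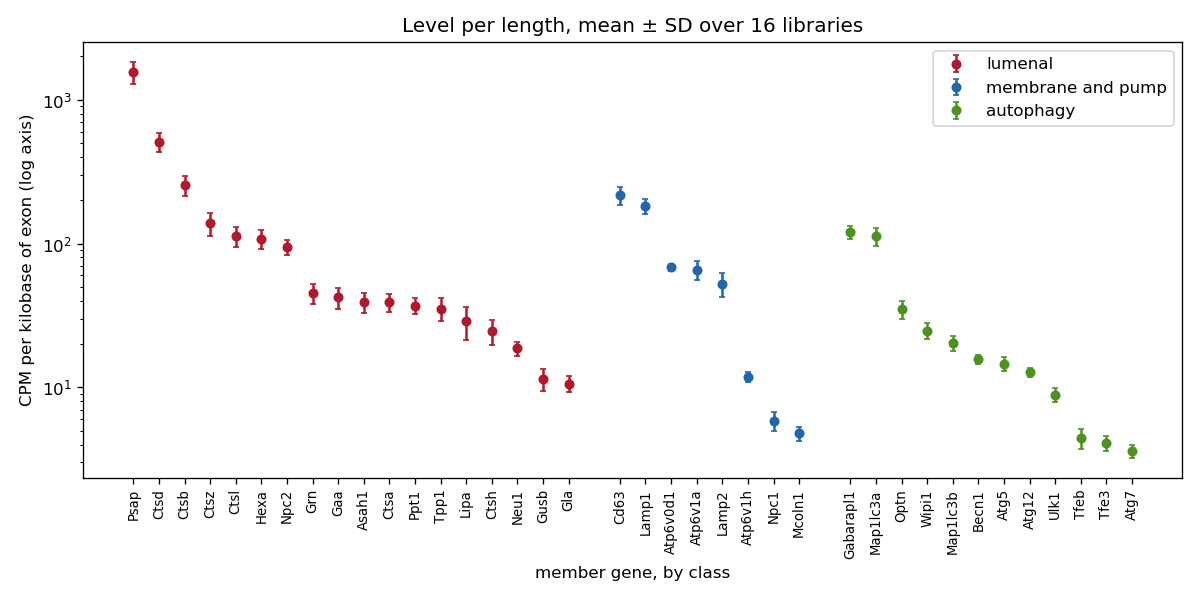
CPM per kilobase of exon on a log axis for the 38 genes, by class; points are means and bars are SDs over 16 libraries. Psap stands alone at 1555, and Atg7 is lowest at 3.60.

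Between libraries of a group, the members varied about as much as other genes at their level. The median SD of log2(CPM + 1) within groups was 0.196 for the 38 genes, against 0.209 for the 7521 tested genes whose mean level lay in the members' range. It was 0.219 for the lumenal genes, 0.185 for membrane and pump genes and 0.158 for autophagy genes. The widest spread belonged to Lipa, the lysosomal acid lipase, with an SD of 0.36 and a 2.43-fold range from 118.7 to 288.1 CPM. The narrowest belonged to Atp6v0d1, with an SD of 0.078 and a 1.27-fold range from 105.4 to 133.7 CPM.

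The lumenal genes moved as a block from library to library. In untreated knockout replicate 4, 0 of 18 were above their mean over the 16 libraries, and in untreated wild-type replicate 4 and knockout replicate 1 with hydroquinone 1 of 18 was. In knockout replicate 3 with hydroquinone 18 of 18 were above it, and in knockout replicate 4 and wild-type replicate 4 with hydroquinone 17 of 18 were. The 3 low libraries had rod scores of 9.89, 8.34 and 9.76, and the 3 high ones 2.88, 3.48 and 4.45. The rod score did not order all libraries alike: untreated wild-type replicate 2 (8.68) had 9 of 18 lumenal genes above the mean and untreated knockout replicate 1 (3.70) had 11 of 18. The median deviation of the lumenal genes ran from -0.46 to 0.31 in log2 units over the 16 libraries, and in the 6 low and high ones the autophagy medians stayed between -0.12 and 0.10.

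**Figure D2:**
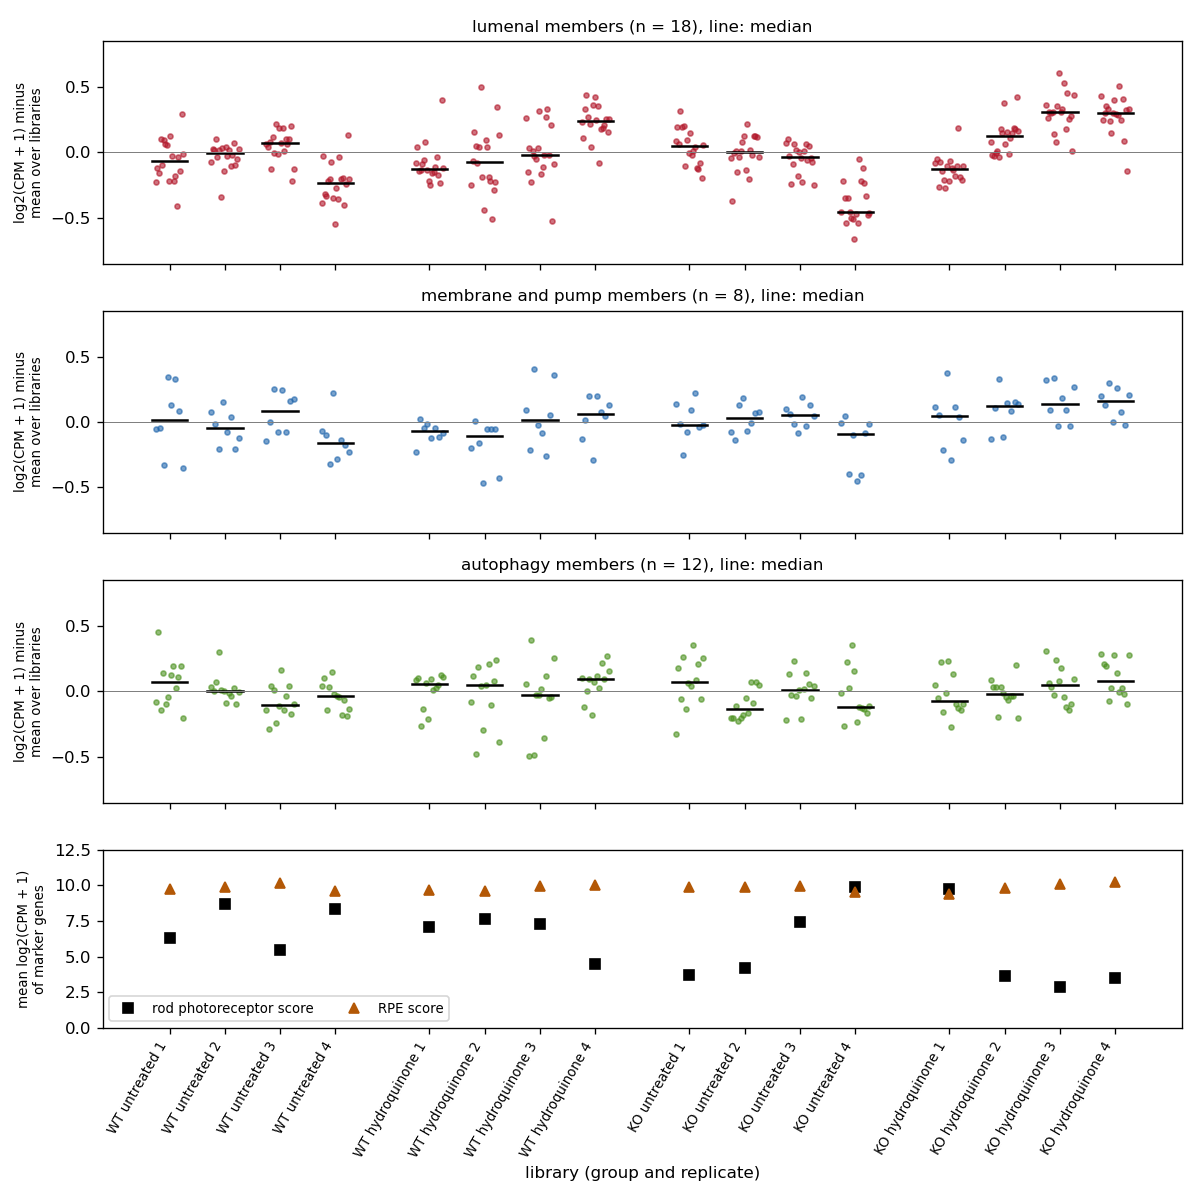
Log2(CPM + 1) of each member minus its own mean over 16 libraries, by class and library (points are genes, lines are class medians), with the rod photoreceptor and RPE scores of each library in the lowest panel. Lumenal genes are lowest in untreated knockout replicate 4, where the rod score is 9.89, and highest in knockout replicates 3 and 4 with hydroquinone.

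To describe this variation apart from the study's groups, each gene was fitted on a marker score within groups, with edgeR's quasi-likelihood test adjusted over all 15380 genes by Benjamini-Hochberg; this fit was added after the data were seen. Of the 38 members, 13 rose with the RPE score and 0 fell, while 6.7% of all genes tested rose with it. The 13 were 10 of 18 lumenal genes and 3 of 8 membrane and pump genes (Lamp2, Cd63 and Atp6v1a); 0 of 12 autophagy genes passed, of which 8 had slopes above 0. Lipa had the steepest slope, 1.28 log2 units per unit of RPE score (SE 0.18, adjusted p = 0.00243). Next among the lumenal genes were Psap at 0.84 (SE 0.14, adjusted p = 0.00438), Asah1, the acid ceramidase, at 0.81 (SE 0.12, adjusted p = 0.00294), and Gusb, the β-glucuronidase, at 0.74 (SE 0.20, adjusted p = 0.0256). Lamp2 had a slope of 0.87 (SE 0.17, adjusted p = 0.00789), whereas Lamp1, which encodes the other main lysosomal coat protein, was not among those that passed.
The hydrolase gene Ctsh, at -0.20 (SE 0.34), was the lumenal gene with a slope below 0, and Ulk1, the kinase that starts autophagy, had the lowest slope of all at -0.32 (SE 0.19, adjusted p = 0.28). The count of 13 became 6 without knockout replicate 1 with hydroquinone and 8 without knockout replicate 3 with hydroquinone. Over all genes, the count that rose moved as well, from 1030 to between 449 and 1096 with 1 library left out. Summing both eyes of a mouse gave 10 (4.1% of all genes), and the autophagy count was 0 in each of 16 fits that left out 1 library.

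The rod score is made of genes of the photoreceptors that lie against the RPE, and it is not independent of the RPE score, with which 12 of 12 rod markers fell over all libraries and 0 of 12 without knockout replicate 1 with hydroquinone. Along the rod score the members went the other way. Of the 38, 10 fell and 0 rose, against 1.99% of all genes that fell and 9.23% that rose. They were 8 lumenal genes, Cd63 and Atg7, and all 18 lumenal slopes were below 0. Lipa again had the steepest slope, at -0.12 log2 units per unit of rod score (SE 0.027, adjusted p = 0.0106), followed by Gusb at -0.088 (SE 0.018, adjusted p = 0.00449). The granulin precursor gene Grn had a slope of -0.066 (SE 0.017, adjusted p = 0.017). The RPE markers themselves had 12 of 12 slopes below 0 on the rod score, and 4 of 12 passed. The rod count depended on single libraries: it was 3 without untreated knockout replicate 4 or without knockout replicate 1 with hydroquinone, 5 without wild-type replicate 4 with hydroquinone, and 6 without knockout replicate 3 or 4 with hydroquinone. The count over all genes moved too, from 306 with all libraries to between 73 and 464 in the 16 fits without 1 library. The members' count was 0 with the macrophage score also in the model (1.03% of all genes fell there), where the median lumenal slope was -0.052 against -0.064. Along the macrophage score, 1 member rose, against 0.774% of all genes: Ctsz, a cathepsin that macrophages also express, with a slope of 0.68 (SE 0.10, adjusted p = 0.00523). With the rod score in the same model 0 members rose with the macrophage score (0.208% of all genes). The part of retinal or macrophage RNA in these slopes was not tested beyond these fits.

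**Figure D3:**
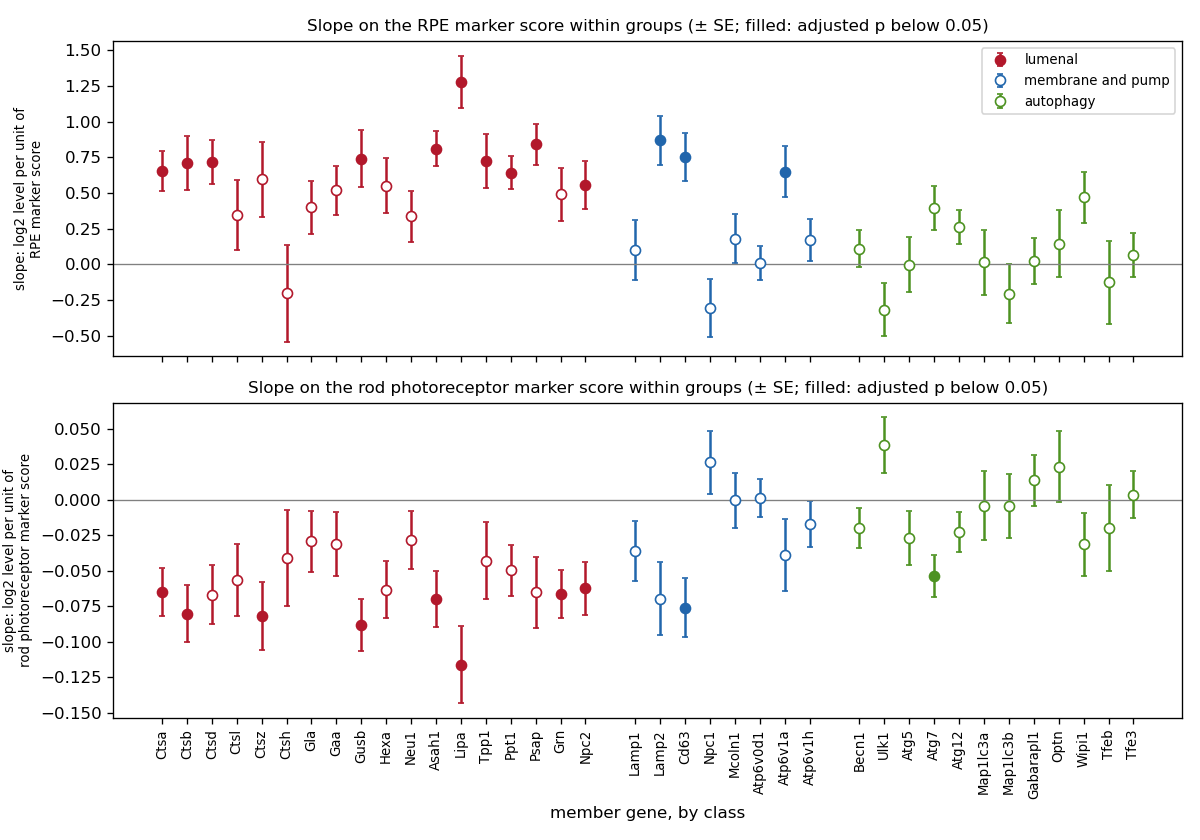
Fitted slope of each member on the RPE score (upper panel) and the rod photoreceptor score (lower panel) within groups, with SE; filled points passed an adjusted p of 0.05. In the upper panel 13 points are filled, 10 of them lumenal, and in the lower panel 10 are.

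Hydroquinone against untreated, averaged over genotype, asks what the oxidant did to these genes in both genotypes. No member passed (0 of 38, edgeR with Benjamini-Hochberg over all genes), while 0.0845% of all genes did. The fitted differences lay mostly above 0: 33 of 38 were higher with hydroquinone, with a median log2 fold change of 0.11, where 51.2% of all genes were higher with a median of 0.0046. All 18 lumenal genes were fitted higher, with a median of 0.165, as were 7 of 8 membrane and pump genes (median 0.034) and 8 of 12 autophagy genes (median 0.037). At an unadjusted p below 0.05, 3 members were higher and 0 lower, next to 5.72% of all genes in either direction (edgeR). DESeq2 also passed 0 members, where it passed 39 of all genes. It had 4 members at an unadjusted p below 0.05, and its share of all genes at that p is not given here. The intervals bound what could have been missed: over all members they ran from -0.41 (Map1lc3a) to 0.68 (Lipa), so a 2-fold average change lay outside each of them.

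The 3 members with the smallest p were Tfe3, Grn and Lamp2. Tfe3 (chromosome X, 7762560 to 7775202) had a log2 fold change of 0.23 (SE 0.067, adjusted p = 0.743 by edgeR). Grn (chromosome 11, 102430315 to 102437048), which encodes the precursor of granulins that support lysosomal hydrolases, had 0.26 (SE 0.098, adjusted p = 0.823 by edgeR). Lamp2 (chromosome X, 38401357 to 38456454) had 0.29 (SE 0.13, adjusted p = 0.868 by edgeR). None of these passed over all genes. The fitted difference of Psap was 0.24 (SE 0.12) and that of Lipa 0.33 (SE 0.17), each with an interval that reached below 0. On the other side, Map1lc3a, an LC3 gene, was the member fitted lowest, at -0.19 (95% interval -0.41 to 0.019).

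**Figure D4:**
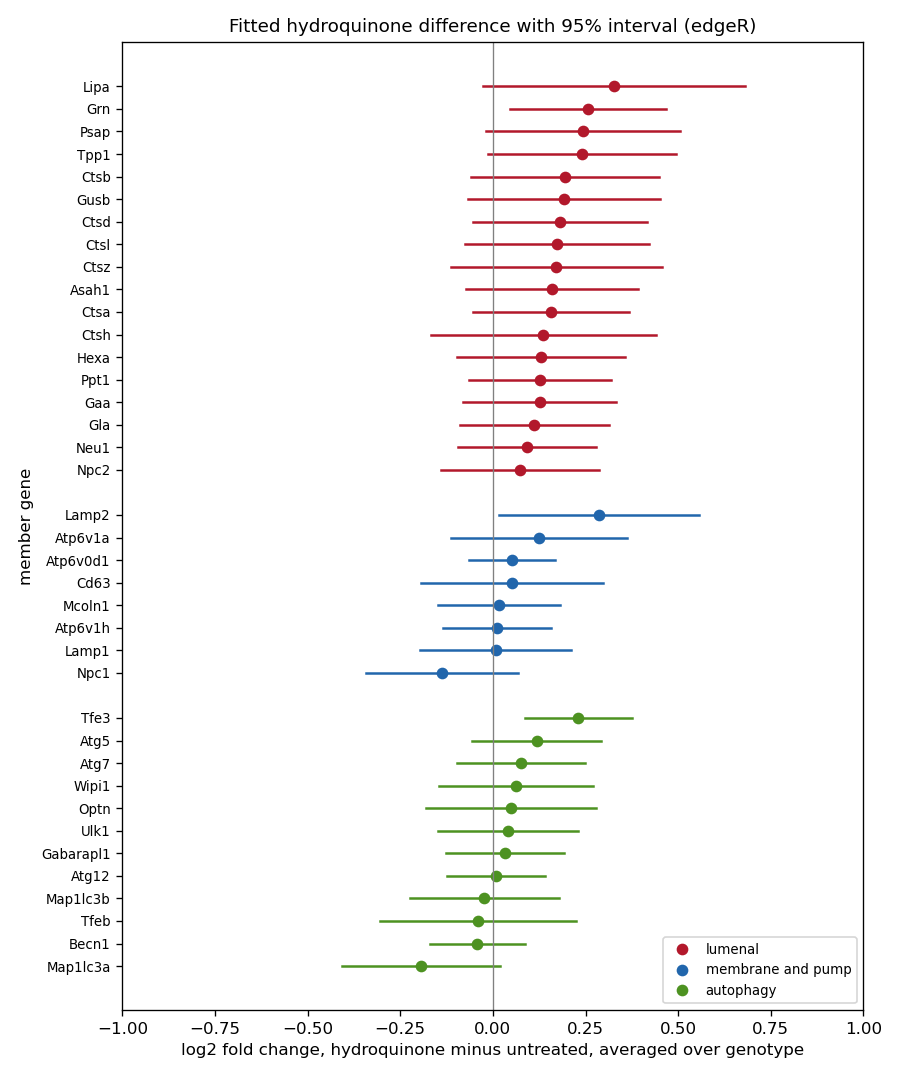
Fitted log2 fold change of hydroquinone against untreated, averaged over genotype, with its 95% interval (edgeR) for the 38 members by class. The 18 lumenal points lie to the right of 0, among them the interval of Grn alone lies above 0, and no interval reaches 1 or -1.

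Within wild type, 0 of 38 members passed, against 0.0065% of all genes. The medians were 0.093 for lumenal, -0.014 for membrane and pump and 0.015 for autophagy genes, and 26 of 38 were fitted higher, where 50% of all genes were. At an unadjusted p below 0.05, 1 member was lower and 0 higher, next to 4.28% of all genes. Npc1, a cholesterol exporter of the lysosomal membrane, had the smallest p. It stood at 83.1, 72.6, 61.7 and 76.1 CPM in the untreated wild-type libraries and at 64.5, 46.9, 64.3 and 53.2 CPM with hydroquinone. The treated libraries were mostly lower, with an overlap between 61.7 and 64.5 CPM, and the log2 fold change was -0.36 (SE 0.14, adjusted p = 0.994 by edgeR). Next came Atg5, part of the conjugate that lipidates LC3 (chromosome 10, 44268358 to 44364291). It was at 39.1, 31.8, 30.2 and 29.9 CPM untreated and at 37.3, 40.3, 33.0 and 41.2 CPM with hydroquinone, a log2 fold change of 0.21 (SE 0.12, adjusted p = 0.994 by edgeR). Untreated replicate 1 lay among the treated libraries. Lamp2 was at 389.9, 426.3, 583.9 and 392.9 CPM untreated and at 476.0, 439.0, 650.8 and 563.9 CPM with hydroquinone, and the groups overlapped, as did those of Psap, at 3599, 4000, 4399 and 3218 CPM untreated and at 3980, 3546, 5052 and 4947 CPM with hydroquinone. Gaa was at 171.6, 202.1, 201.3 and 195.0 CPM and Grn at 153.6, 157.6, 141.5 and 134.5 CPM in untreated wild type. Treated wild-type libraries had Grn at 142.6, 170.0, 145.9 and 185.2 CPM, across the untreated range and above it. No member separated the treated from the untreated wild-type libraries, next to 2.91% of all genes that did.

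Within the knockout, 0 of 38 members passed as well, against 0.0455% of all genes. The medians were 0.24 for lumenal genes (18 of 18 higher), 0.11 for membrane and pump genes (8 of 8) and 0.044 for autophagy genes (7 of 12), where 49.6% of all genes were higher. In the knockout libraries whose identifier has no letter, a split described further on, the medians were -0.041 for lumenal genes (5 of 18 higher), 0.0090 for membrane and pump genes (4 of 8) and -0.068 for autophagy genes (5 of 12), where 51.2% of all genes were higher. At an unadjusted p below 0.05, 3 members were higher, next to 2.96% of all genes. Tfe3 was at 29.9, 32.6, 32.3 and 37.3 CPM in the untreated knockout libraries and at 38.9, 40.1, 47.0 and 46.2 CPM with hydroquinone. Every treated library was above every untreated one, which made Tfe3 the member, 1 of 38, whose groups did not overlap upward, next to 1.18% of all genes. Its log2 fold change was 0.38 (SE 0.095, adjusted p = 0.938 by edgeR), and it ranked 17 by p among all genes tested. Of the 12 autophagy genes, Atg7 alone passed on the rod score and 0 passed on the RPE score. The slope of Tfe3 was 0.0036 (SE 0.017) on the rod score and 0.067 (SE 0.15) on the RPE score. The related factor gene Tfeb had a log2 fold change of 0.096 (SE 0.17).

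Grn was at 161.3, 151.2, 130.0 and 111.9 CPM in untreated knockout and at 143.8, 173.2, 210.4 and 194.7 CPM with hydroquinone. The treated replicate 1 lay among the untreated libraries, and the log2 fold change was 0.38 (SE 0.14, adjusted p = 1.00 by edgeR). Gaa, the acid α-glucosidase that breaks down glycogen (chromosome 11, 119267887 to 119285454), was at 200.7, 173.1, 201.0 and 193.0 CPM untreated and at 181.7, 197.8, 287.9 and 284.4 CPM with hydroquinone. Treated replicates 3 and 4 stood apart from the other 6 knockout libraries, while replicates 1 and 2 did not. The log2 fold change was 0.31 (SE 0.14, adjusted p = 1.00 by edgeR), and it was 0.18 without treated replicate 3 and -0.0015 in the libraries without a letter. Psap, the most abundant member, was at 4471, 4084, 4413 and 3067 CPM untreated and at 3981, 4441, 5422 and 5660 CPM with hydroquinone, with overlap. Lamp2 was at 411.8, 536.0, 485.4 and 371.6 CPM untreated and at 422.8, 615.1, 621.4 and 603.7 CPM with hydroquinone, where replicate 1 alone was not above the untreated libraries. Atg5 was at 32.7, 35.8, 32.9 and 30.2 CPM untreated and at 30.8, 39.3, 31.7 and 31.9 CPM with hydroquinone, and the groups overlapped.

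The library identifiers in the labels come in 2 forms, with or without a letter, and the hydroquinone difference was unlike between them. The 2 forms share mice, since each of the 3 mice with both eyes had 1 eye in each form. The untreated wild-type libraries of both forms came from the same 2 mice, so the 2 subsets are not independent. In the 9 libraries without a letter, the median log2 fold change averaged over genotype was -0.043 for lumenal genes, of which 4 of 18 were fitted higher (50.3% of all genes were), -0.059 for membrane and pump genes and -0.095 for autophagy genes. In the 7 libraries with a letter, all 18 lumenal genes were fitted higher (45.6% of all genes were) with a median of 0.45, membrane and pump genes had 0.15 and autophagy genes 0.065. In that subset 19 of 38 members, 13 of them lumenal, had an unadjusted p below 0.05, where 19.6% of all genes did, and 0 passed, the smallest adjusted p being 0.118 (edgeR). The rod score moved with treatment there: with a letter, the 4 untreated libraries had rod scores of 7.43 to 9.89 and the 3 treated ones 2.88 to 4.45, with no overlap, so that treatment and rod RNA cannot be told apart in that subset. Without a letter, rod scores were 3.70 to 6.27 untreated and 3.66 to 9.76 with hydroquinone. The wild-type libraries among them were at 6.27 and 5.46 untreated and at 7.08, 7.62 and 7.27 with hydroquinone. These did not overlap either, with treated libraries higher, so treatment and rod RNA cannot be told apart there. The knockout libraries without a letter were at 3.70 and 4.19 untreated and at 9.76 and 3.66 with hydroquinone. Macrophage scores with a letter were 4.51 to 5.47 untreated and 5.58 to 5.99 treated, again with no overlap. The wild-type hydroquinone group has 1 library with a letter, whose spread was taken to be that of the other groups. With the rod score as a covariate over all 16 libraries, the lumenal median was 0.096, with the macrophage score 0.090 and with the RPE score 0.16. In that order, 1, 0 and 10 of 18 lumenal genes had an unadjusted p below 0.05 (edgeR), against 1 without a covariate. The share of all genes at that p is not given for these fits, so these counts have no background to be read against. No member passed in these 3 fits, where 13, 8 and 21 of all genes did. With the form of the identifier as a covariate over all 16 libraries, 0 members passed, where 13 of all genes did. The smallest adjusted p of a member was 0.36 there (edgeR). What the letter stands for is not stated, and its part in the difference was not tested beyond that fit and the split.

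**Figure D5:**
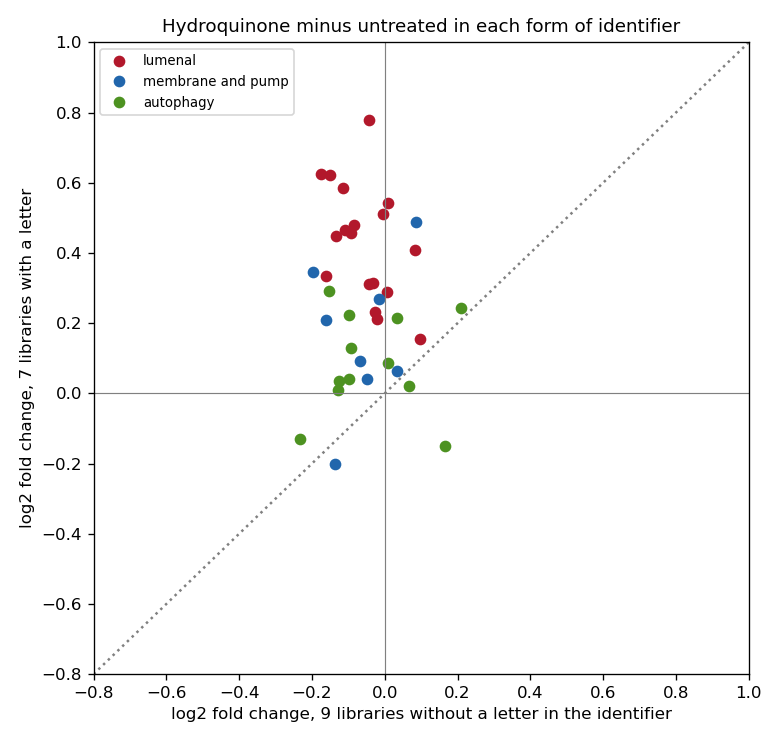
Fitted log2 fold change of hydroquinone against untreated, averaged over genotype, for each member in the 9 libraries without a letter in the identifier (x axis) and in the 7 with a letter (y axis); the dotted line marks equal values. The lumenal genes lie above the line, around a median of -0.043 on the x axis and 0.45 on the y axis.

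Knockout against wild type asks what loss of the receptor did. Averaged over treatment, 0 of 38 members passed and 0% of all genes did, and 1 member had an unadjusted p below 0.05, next to 2.96% of all genes. The medians were 0.045 for lumenal, 0.050 for membrane and pump and 0.0051 for autophagy genes, where all genes had 0.02. In untreated mice 0 members passed (0% of all genes), 0 had an unadjusted p below 0.05 (1.32% of all genes did) and 0 separated the genotypes (1.05% of all genes did). The smallest p there belonged to Tfe3 with a log2 fold change of -0.15 (SE 0.095), Atg7 with -0.16 (SE 0.11) and Npc1 with -0.18 (SE 0.14), each with an adjusted p of 1.00 by edgeR. Atg7 was at 27.3, 23.4, 28.1 and 24.4 CPM in untreated wild type and at 25.7, 24.1, 21.4 and 21.1 CPM in untreated knockout. Its ranges met between 23.4 and 25.7 CPM. With hydroquinone, Atg7 was at 26.7, 25.9, 25.2 and 27.1 CPM in wild type and at 20.5, 24.2, 28.4 and 27.6 CPM in knockout, which lay on both sides. Of the genes that follow, Gabarapl1 was at 233.9, 242.3, 223.3 and 238.4 CPM in untreated wild type and at 252.1, 212.8, 242.9 and 269.6 CPM in untreated knockout. Mcoln1 was at 34.7, 37.9, 32.4 and 34.2 CPM in untreated wild type and at 39.7, 34.0, 38.7 and 35.9 CPM in untreated knockout, and both genes' genotypes overlapped.

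Under hydroquinone, 0 of 38 members passed (0% of all genes), and 3 members were higher in the knockout at an unadjusted p below 0.05, next to 4.18% of all genes in either direction. They came from 1 class each: Gaa at 0.36 (SE 0.14), Gabarapl1 at 0.26 (SE 0.11) and Mcoln1 at 0.25 (SE 0.11), each with an adjusted p of 1.00 by edgeR. Gaa was at 179.9, 175.0, 196.4 and 188.3 CPM in treated wild type, all below replicates 2, 3 and 4 of the treated knockout given above, while replicate 1 lay among them. Gabarapl1 was at 208.5, 196.4, 237.3 and 253.9 CPM in treated wild type and at 283.5, 239.0, 255.6 and 292.5 CPM in treated knockout. Its ranges met only at wild-type replicate 4 and knockout replicate 2. Mcoln1 was at 30.6, 31.3, 38.5 and 32.8 CPM in treated wild type and at 39.0, 32.8, 45.3 and 41.5 CPM in treated knockout, and knockout replicate 2 lay among the wild-type libraries. Averaged over treatment, its log2 fold change was 0.17 (SE 0.077, adjusted p = 0.987 by edgeR).

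For 2 members the treated genotypes did not overlap, both higher in the knockout, next to 1.72% of all genes; they were named after their values were seen. Lamp1 was at 466.9, 465.6, 403.6 and 509.4 CPM in treated wild type and at 522.9, 512.1, 513.7 and 510.2 CPM in treated knockout. The distance was small, from 509.4 to 510.2 CPM, and the log2 fold change was 0.16 (95% interval -0.13 to 0.44). Atp6v0d1, which encodes a subunit of the membrane sector of the V-ATPase, was at 124.2, 123.2, 105.4 and 123.5 CPM in treated wild type and at 127.2, 131.5, 130.1 and 133.7 CPM in treated knockout. Its log2 fold change was 0.13 (95% interval -0.030 to 0.30). Summed over the 38 genes, wild-type libraries held 12960 ± 1217 CPM untreated and 14060 ± 1475 CPM when treated (SD, n = 4 libraries). Knockout libraries held 13040 ± 1672 and 15140 ± 1968 CPM in the same order. The sums of all 4 groups overlapped.

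The interaction asks whether hydroquinone acted differently in the knockout; 0 of 38 members passed and 0% of all genes did, and 2 members had an unadjusted p below 0.05, next to 1.92% of all genes. Npc1 had a difference of log2 fold changes of 0.44 (SE 0.19), from -0.36 in wild type to 0.085 in the knockout, where it was at 61.8, 74.1, 61.5 and 60.8 CPM untreated and at 84.6, 60.2, 64.0 and 65.2 CPM with hydroquinone. Tfe3 had 0.30 (SE 0.13), from 0.080 in wild type to 0.38 in the knockout, and its wild-type libraries were at 35.5, 38.6, 34.1 and 38.9 CPM untreated and at 40.1, 35.5, 39.3 and 40.5 CPM with hydroquinone. Both adjusted p were 1.00 by edgeR. The median interaction was 0.16 for lumenal genes, 0.13 for membrane and pump genes and 0.021 for autophagy genes, with 15 of 18 lumenal genes above 0, and no test showed a difference between the genotypes.

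A wider list of 83 further genes of the same pathways, all tested, gave a like picture. With hydroquinone averaged over genotype 0 of 83 passed, 64 were fitted higher (51.2% of all genes were) with a median of 0.062, and 5 were higher and 0 lower at an unadjusted p below 0.05. Of all genes, 5.72% were at that p. The 30 further lumenal genes had a median of 0.12 with 28 higher, the 24 membrane and pump genes 0.039 with 18 higher, and the 29 autophagy genes 0.028 with 18 higher. The gene with the smallest p was Sqstm1, which encodes p62, a receptor that carries cargo into autophagosomes. It was at 451.5, 425.7, 442.3 and 414.2 CPM in untreated wild type and at 470.9, 476.6, 475.3 and 502.6 CPM with hydroquinone. In the knockout it was at 422.4, 390.2, 416.2 and 358.8 CPM untreated and at 440.3, 605.5, 631.5 and 631.4 CPM with hydroquinone. Treated libraries were above untreated ones in both genotypes without overlap, and the log2 fold change was 0.35 averaged over genotype (SE 0.079, adjusted p = 0.298 by edgeR), 0.15 in wild type (SE 0.11) and 0.54 in the knockout (SE 0.11, adjusted p = 0.324 by edgeR). Its interaction was 0.39 (SE 0.16, adjusted p = 1.00 by edgeR). Of the 83 genes, 5 separated treated from untreated wild-type libraries upward and 1 downward, next to 2.91% of all genes in either direction. In the knockout 2 did so upward, next to 1.18% of all genes, and 0 downward. Dnase2a, the DNase of the lysosome, had a log2 fold change of 0.32 averaged over genotype (SE 0.094, adjusted p = 0.759 by edgeR), the second smallest p of the list. It was at 36.6, 31.8, 34.2 and 27.1 CPM in untreated and at 37.4, 42.3, 40.0 and 38.0 CPM in treated wild type, without overlap, and at 34.9, 28.6, 36.2 and 25.1 CPM in untreated and at 34.8, 35.8, 44.6 and 43.9 CPM in treated knockout, with overlap.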

How the data were processed

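The deposited table holds a number per Ensembl gene and library. Its name announces FPKM, but 100% of the values are whole and library totals differ, so the deposited values were read as counts, not normalized. Per the submitters' processing notes, STAR, Cufflinks, DESeq2 and mm10 were involved; versions, strand setting and annotation are not given in the sources used here. Symbols and coordinates came from GENCODE vM21 (GRCm38), which held 51719 of 51912 identifiers. The members and gene lists were chosen with earlier results of these data known.

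Genes averaging 1 CPM or more (99.8% of counts) were fitted with edgeR 4.0.16 in R 4.3.3: quasi-likelihood F test, TMM scaling, 4 group means in 1 model, Benjamini-Hochberg over 15380 genes, threshold 0.05, after a test on simulated data. CPM use TMM-scaled libraries; SEs come from the F statistic. The contrasts share groups, so their values are not independent. Alternatives included DESeq2 1.42.0, limma 3.58.1 with the mouse as block, and each library left out.

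The titles name 13 mice, 3 of them with both eyes, whereas the protocol states 4 animals a group; titles were followed, and eyes entered as separate libraries. The p-values therefore measure partly the spread between eyes of a mouse. Replicate numbers are only names. Genes given in every library were those with the 3 smallest p per contrast, the highest and lowest per kilobase in each class, and those whose treated and untreated libraries did not overlap; of a wider list, the 2 with the smallest p.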

Additional observations from a re-analysis of the deposited data

Results flagged for a closer look

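There were 176 sets of 4 libraries, each a member, the mean of a member class or a marker score in 1 group. The gap from the most extreme library to the next was taken as a share of the group's range. In 10 sets it was above Dixon's 95% limit for 4 values. Chance alone would give about 8.8, and the sets are not independent. Among lumenal genes this was Ppt1, the palmitoyl thioesterase, low in untreated knockout replicate 4 (0.843 of the range, log2(CPM + 1) of 6.87 against 7.11 to 7.15). Among membrane and pump genes, Lamp2 was low in knockout replicate 1 with hydroquinone (0.925, 8.73 against 9.24 to 9.28), Atp6v0d1 was low in wild-type replicate 3 with hydroquinone (0.951, 6.73 against 6.96 to 6.97), and Npc1 was high in untreated knockout replicate 2 (0.919, 6.23 against 5.95 to 5.97). Among autophagy genes, Ulk1 was high in knockout replicate 3 with hydroquinone (0.839, 6.11 against 5.86 to 5.90) and Atg5 was high in knockout replicate 2 with hydroquinone (0.861, 5.33 against 4.99 to 5.04).

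Of the marker scores, the RPE score was low in untreated knockout replicate 4 (0.847, 9.54 against 9.90 to 9.96). The rod photoreceptor score was high in knockout replicate 1 with hydroquinone (0.886, 9.76 against 2.88 to 3.66) and low in wild-type replicate 4 with hydroquinone (0.830, 4.45 against 7.08 to 7.62), where the macrophage and microglia score was high (0.896, 5.99 against 5.08 to 5.18).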

How the results depend on the processing

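No member passed in any of the 7 contrasts under any alternative run. DESeq2 passed 39 genes in all for hydroquinone averaged over genotype where edgeR passed 13. Libraries without a letter gave class medians with hydroquinone of -0.043 (lumenal), -0.059 (membrane and pump) and -0.095 (autophagy), and those with a letter 0.45 and 0.15 for the first 2; without a letter, Grn (-0.0032) and Gaa (-0.0015) in the knockout turned below 0. The cause was not tested. Leaving out each library in turn gave lumenal medians of 0.11 to 0.21, autophagy medians of 0.010 to 0.053, and membrane and pump medians of -0.0057 (without untreated knockout replicate 4) to 0.056. The count of members falling with the rod score was 0 with the macrophage score in the model and 5 with eyes summed. It was 1 without knockout replicate 1 with hydroquinone and the 2 libraries of fewest genes, and 3 to 13 with 1 library left out. The share of all genes that fell is not given for the summed eyes or for the fit without the libraries of fewest genes. The count rising with the RPE score was 6 to 14 with 1 library left out. Over all genes, those fits gave 73 to 464 falling with the rod score and 449 to 1096 rising with the RPE score. Knockout medians moved with single libraries from 0.0059 to 0.091 (lumenal) and from -0.022 to 0.030 (autophagy). Of the values recomputed, 607 for single genes kept their sign and their side of the threshold. Another 419, for class summaries and counts, stayed within a set margin of the reported value. That margin, an SD between libraries for medians, does not check the sign, so some medians within it crossed 0. No paired analysis was possible because no mouse gave libraries to more than 1 group, and replicate numbers are only names. The correlation of eyes of 1 mouse was -0.020, and the mouse as block passed 0 members. At these depths, the intervals allow changes below 2-fold.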
